A study of Homo sapiens with 6 samples.

Results

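The 45 genes described here encode proteins of the lysosome and of autophagy. They were taken from a fixed list of gene symbols, chosen with earlier results of these data known. All 45 have a row in both count tables, which hold 15945 genes for A375 and 15429 for PC9. The list holds 14 soluble hydrolases of the lysosome lumen, 3 luminal helper proteins (PSAP, GRN and NPC2), 7 membrane proteins, 5 genes of the proton pump, 12 autophagy genes and 4 regulators. The hydrolases and helpers are called luminal below (17 genes), membrane and pump genes form a group of 12, and autophagy genes and regulators one of 16. A gene was counted in a line when it reached 10 CPM (UMIs of the gene per 1000000 UMIs of the population) in at least 1 population, which 42 of the 45 did in A375 and 40 in PC9. TFEB, FLCN and GABARAP stayed below in both lines, and MCOLN1 and RRAGD stayed below in PC9. LGMN and CD68 in A375, and NEU1, WIPI1 and TFE3 in PC9, were below 10 CPM in untreated cells and were counted because of a treated population.

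The study followed cultured cancer cells that were exposed to rising amounts of a kinase inhibitor. The melanoma line A375 carries BRAF-V600E, and its cells were taken up step by step in dabrafenib, a BRAF inhibitor, with populations collected untreated and after adaptation to 30, 60, 125, 250 and 500 nM and 1, 2 and 4 µM. PC9 is a lung adenocarcinoma line with an activating EGFR mutation, and its cells were taken up in osimertinib, an EGFR inhibitor, with populations collected untreated and after adaptation to 8, 16, 32, 75, 150, 300 and 600 nM and 1.2 µM. A further PC9 population, the persisters, survived 9 days of sudden exposure to 1.2 µM. Within a line all populations were tagged, pooled and profiled together by single-cell RNA sequencing, and each population is 1 culture, so no test between conditions is possible and the intervals below cover counting error only. A clone, a culture's history and the drug cannot be told apart in this design.

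Lysosomes are acidic compartments in which hydrolases break down proteins, sugars and lipids. The vacuolar ATPase pumps in the protons, and heavily glycosylated membrane proteins such as LAMP1 and LAMP2 line the inner face. In autophagy a double membrane grows around cytoplasmic cargo, is decorated with proteins of the LC3 and GABARAP families and then fuses with the lysosome. The transcription factors TFEB, TFE3 and MITF are known to bind a short palindromic promoter element and to raise transcription of lysosomal and autophagy genes when they are released into the nucleus, a step that the Rag GTPases and FLCN restrain at the lysosome surface.

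That element has CACGTG as its core, so the promoters of the genes were searched for CACGTG, which reads the same on both strands, and for the longer TCACGTG on either strand, which contains it. RefSeq promoter windows on GRCh38.p14 run from 250 bases before to 50 bases after a start site, and 35 of the 45 genes have at least 1 window, 50 windows in all. CTSB, LGMN, HEXA, ASAH1, PSAP, LAMP2, ATP6V1A, ATP6V1H, RRAGD and UVRAG have no window there. CACGTG was found in 8 of the 50 windows (16.0%), against 7.26% of all 35116 windows, 9.47% of those of genes counted in A375 and 9.52% of those of genes counted in PC9. It lay in a window of 4 of 12 luminal genes (CTSA, CTSD, GAA and NEU1), in 4 of 9 membrane and pump genes (LAMP1, CD63, MCOLN1 and ATP6V0D1) and in 0 of 14 autophagy genes and regulators. The 4 luminal promoters are shown because each of these genes was at least 1.5-fold higher in a treated population, and capitals mark TCACGTG or its reverse complement. All 4 stretches are written in the direction of transcription, 5′ to 3′, and end before the start site. NEU1, a sialidase, lies on the minus strand (chr6:31862882-31863008). CTSA, the protective protein and carboxypeptidase cathepsin A, lies on the plus strand (chr20:45891250-45891334), GAA, the acid alpha-glucosidase, on the plus strand (chr17:80101490-80101580) and CTSD, the aspartic protease cathepsin D, on the minus strand (chr11:1763928-1764034).
NEU1: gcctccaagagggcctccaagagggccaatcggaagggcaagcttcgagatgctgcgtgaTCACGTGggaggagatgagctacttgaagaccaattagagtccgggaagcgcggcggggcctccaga
CTSA: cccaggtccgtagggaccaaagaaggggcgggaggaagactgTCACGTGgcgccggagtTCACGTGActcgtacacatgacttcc
GAA: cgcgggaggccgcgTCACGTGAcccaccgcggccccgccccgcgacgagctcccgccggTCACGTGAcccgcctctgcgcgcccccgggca
CTSD: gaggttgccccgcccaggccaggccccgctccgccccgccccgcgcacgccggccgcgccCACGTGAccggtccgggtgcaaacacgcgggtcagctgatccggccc

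CTSA and GAA each carry 2 copies of the core in these stretches, and NEU1 and CTSD carry 1. In the PC9 persisters 3 of 7 counted genes with it and 11 of 24 without it were at least 1.5-fold higher than in untreated cells, with median log2 ratios of 0.32 and 0.54. Against 1.2 µM adapted cells the counts in persisters were 2 of 7 and 6 of 24 (medians 0.14 and 0.24). They were 2 of 7 and 5 of 24 at 8 nM (0.35 and 0.29) and 2 of 7 and 8 of 24 at 1.2 µM (0.27 and 0.39). In A375 they were 2 of 8 and 2 of 24 at 30 nM (0.26 and 0.19), 1 of 8 and 7 of 24 at 4 µM (0.37 and 0.24) and 0 of 8 and 3 of 24 at 500 against 250 nM (-0.16 and 0.04). The larger share was on the side of the core in 3 of the 7 comparisons and on the other side in the rest. Of all counted genes, 20.3%, 10.6%, 10.4%, 15.1%, 9.64%, 10.9% and 10.3% were at least 1.5-fold higher, in the order of the comparisons above. NEU1, with the core, and WIPI1 and TFE3, without it, were counted in PC9 only because of treated populations. The same holds for CD68, without the core, in A375. The match describes these letters in these windows and says nothing of binding.

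The A375 table holds 8505 cells and 87053189 UMIs in 9 populations of 379 to 2011 cells, and the one for PC9 holds 11258 cells and 77210300 UMIs in 10 populations of 823 to 1410 cells. A gene without a UMI could be at up to 1.02 CPM in the smallest A375 population and 0.611 CPM in the smallest PC9 population (3 counts). No cell barcode was shared between populations of a table, and 27 barcodes occurred in both tables. Of the line markers, SOX10 (208 CPM) and MITF (73.4 CPM) were present in untreated A375, while MLANA (0.273 CPM), TYR (0.0910 CPM) and PMEL (1.32 CPM) were near 0. Untreated PC9 cells had EPCAM at 441 CPM and KRT18 at 2958 CPM, and NKX2-1 and SFTPB have no row in either table. Mitochondrial UMIs made up a median of 5.22% per cell in untreated A375 and 7.67% at 4 µM, where 10.6% of cells were at 20% or more, and 7.42% in untreated PC9 against 8.55% in persisters, where no cell was. The part of these shares in the results was not tested.

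A set of luminal genes was higher in A375 from the lowest dose on. At 30 nM 7 of 42 genes were at least 1.5-fold higher than in untreated cells, where 9.64% of all 10421 counted genes were, and 2 were at least 1.5-fold lower, where 12.6% of all genes were. The 7 were CTSA, CTSD, ASAH1, TPP1, PSAP, LAMP2 and CD68, and CD68 was counted only because of treated populations. At 4 µM 10 were higher, against 10.9% of all genes, and 2 were lower, against 20.8%. The median log2 ratio of the counted genes was 0.25 at 30 nM and 0.27 at 4 µM, beside -0.06 and -0.16 over all counted genes. Both comparisons use the same untreated cells, so their likeness is not separate evidence. Fibroblast markers were higher in sum in the same populations, though not each of them was. All 7 have a row and 4 reached 10 CPM. The sum of the 7 was lowest in untreated cells, at 13.8 CPM, and highest at 30 nM, at 118 CPM. LUM was at 6.69 CPM untreated, 75.7 CPM at 30 nM and 44.0 CPM at 4 µM. FAP was at 1.77, 19.8 and 25.4 CPM and COL3A1 at 0.637, 5.42 and 17.9 CPM. DCN, which also reached 10 CPM, was at 1.91, 12.3 and 1.83 CPM, so it was not higher at 4 µM. PDGFRA was lower at both doses, at 1.18, 0.713 and 0.786 CPM, with counting intervals of the ratios that include 1. COL1A2 and PDGFRA were at or below 1.63 CPM in every population, and COL1A2 was at 0 at 125 and 250 nM. The part of these markers in the results was not tested.

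Among the A375 hydrolases CTSA stood at 59.9 CPM in untreated cells and at a lowest of 90.5, a median of 101 and a highest of 116 CPM over the 8 adapted populations. Every adapted population was above the untreated one by at least 1.5-fold, and the ratio was 1.72-fold (95% counting interval 1.56 to 1.88) at 30 nM and 1.83-fold (1.68 to 2.00) at 4 µM. TPP1, which removes tripeptides from the ends of proteins, was at 16.4 CPM untreated and at 24.2 to 36.3 CPM adapted, with a median of 34.2. It reached 2.05-fold (1.74 to 2.43) at 30 nM and 2.17-fold (1.84 to 2.54) at 4 µM, and the populations at 60 to 250 nM lay between those and the untreated cells. ASAH1, the acid ceramidase, was at 32.1 CPM untreated, 51.8 CPM at 30 nM and 64.8 CPM at 4 µM, a ratio of 2.02-fold (1.79 to 2.27) at the top dose.

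Not every hydrolase followed. CTSZ, a carboxypeptidase, was at 230.3 CPM at 30 nM, 1.55-fold below untreated cells (1.47 to 1.63), and at 449 CPM at 60 nM, above them. Apart from 60 nM, all adapted populations lay at 218 to 265 CPM. GUSB, the beta-glucuronidase, was at 46.2 CPM untreated and 27.0 CPM at 4 µM, 1.71-fold lower (1.47 to 2.00). That value moved to a log2 ratio of -0.41 from -0.76 when only the cells in the authors' cell table were used. CTSD was highest at 30 nM (154 CPM, 1.93-fold, 1.79 to 2.08) and at 125 nM stood at 74.5 CPM, below its untreated 79.8 CPM. GLA, the alpha-galactosidase, was never above its untreated 30.5 CPM and was lowest at 125 nM, at 10.9 CPM, the smallest population of the line.

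**Figure D1:**
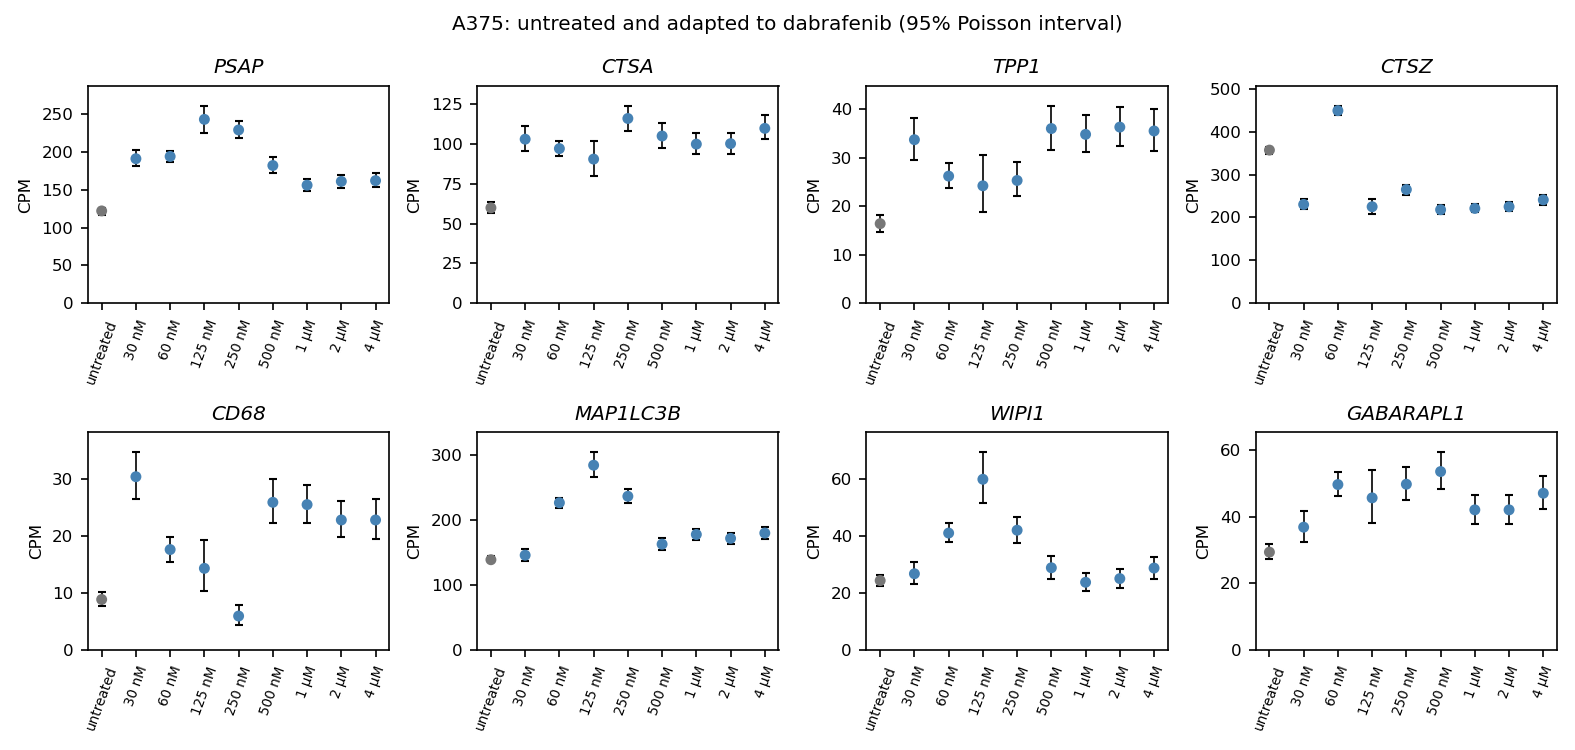
CPM of 8 genes in the 9 A375 populations, with the dabrafenib dose along the x axis and 95% Poisson counting intervals as bars. CTSA and TPP1 lie above the untreated point at every dose, PSAP, MAP1LC3B and WIPI1 are highest at 125 nM, and CD68 drops to 5.92 CPM at 250 nM and stands at 25.9 CPM at 500 nM.

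Some A375 helper and autophagy genes were highest at intermediate doses, and others were high throughout. PSAP, the precursor of the saposins that present lipids to hydrolases, was at 122 CPM untreated, 243 CPM at 125 nM and 162 CPM at 4 µM. MAP1LC3B, the LC3 protein that coats the autophagosome, was at 139 CPM untreated, 285 CPM at 125 nM and 180.2 CPM at 4 µM, and reads could be shared with its near-identical copy MAP1LC3B2. WIPI1, which reads the lipid that marks forming autophagosomes, had 24.3 CPM untreated and 59.9 CPM at 125 nM, 2.46-fold higher (2.07 to 2.93), and 28.7 CPM at 4 µM. In each of the 3, 125 nM was the highest population and all 4 doses from 500 nM up lay below 60, 125 and 250 nM.

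SQSTM1, the p62 receptor that carries ubiquitin-tagged cargo into autophagosomes, was instead high at all doses: 294 CPM untreated and 424 to 596 CPM adapted, with a median of 519. Its ratio at 4 µM was 1.70-fold (1.64 to 1.77). GABARAPL1, of the GABARAP family, was at 29.3 CPM untreated and 36.8 to 53.5 CPM adapted, 1.60-fold higher at 4 µM (1.41 to 1.83). Among listed cells alone its log2 ratio was 0.48 in place of 0.66, under 1.5-fold. GRN, the progranulin precursor, was at 72.1 CPM untreated and 104 to 127 CPM adapted, highest at 4 µM (1.76-fold, 1.63 to 1.91). NPC2, which carries cholesterol in the lumen, was at 89.1 CPM untreated, 85.7 to 107 CPM up to 250 nM and 145 CPM at 4 µM, 1.63-fold (1.51 to 1.75). LAMP2 stood at 46.0 CPM untreated, 71.3 CPM at 30 nM (1.55-fold, 1.39 to 1.73) and 75.5 CPM at 4 µM (1.64-fold, 1.48 to 1.82). LAMP1 was within 71.1 to 96.1 CPM everywhere, around its untreated 83.4. UVRAG, a subunit of a lipid kinase complex of autophagy, was lower, at 144 CPM untreated, 95.8 CPM at 30 nM (1.51-fold lower, 1.39 to 1.64) and 94.1 CPM at 4 µM, while it stood at 138 to 147 CPM from 60 to 250 nM.

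CD68, a lysosomal membrane protein best known from macrophages, had the widest swing in A375. It was at 8.83 CPM untreated, then 30.4, 17.6, 14.3 and 5.92 CPM from 30 to 250 nM, and 25.9, 25.5, 22.8 and 22.8 CPM from 500 nM to 4 µM. The 250 nM population lay below the untreated cells and the other 7 above, by 3.44-fold (2.82 to 4.20) at 30 nM and 2.58-fold (2.09 to 3.18) at 4 µM. Of 10 macrophage markers 7 have a row in the A375 table, and only MSR1 reached 10 CPM: it was at 70.3 CPM untreated, 100.4 at 30 nM, 49.7 at 250 nM and 126 at 500 nM. The other 6 summed to 2.36 to 6.10 CPM in every population, with CD14 at 0 at 30 nM, 125 nM and 500 nM. A processed transcript, AC016876.2, overlaps CD68 on the same strand in the GENCODE 29 annotation.

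Few of the genes differed between cells adapted to 250 nM and to 500 nM. At 500 nM 3 of 42 were at least 1.5-fold higher, beside 10.3% of all genes, and 1 was lower, beside 11.4%. CD68 was 4.37-fold higher (3.15 to 6.16), CTSL, a cysteine protease, was at 48.0 and 82.7 CPM, 1.72-fold higher (1.51 to 1.97), and TFE3 was at 19.2 and 31.9 CPM, 1.66-fold higher (1.35 to 2.06). The level of CTSL at 250 nM was its lowest in A375, and untreated cells had 90.1 CPM, so it was not above them at 500 nM. RRAGD, a Rag GTPase of the lysosome surface named after its value was seen, was at 16.3 and 6.72 CPM, 2.42-fold lower (1.71 to 3.46). The median log2 ratio was -0.10, close to the -0.02 of all counted genes. The markers SOX10 (211 to 68.0 CPM) and S100B (358 to 110.2 CPM) were lower across the same step, and their part in these differences was not tested.

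**Figure D2:**
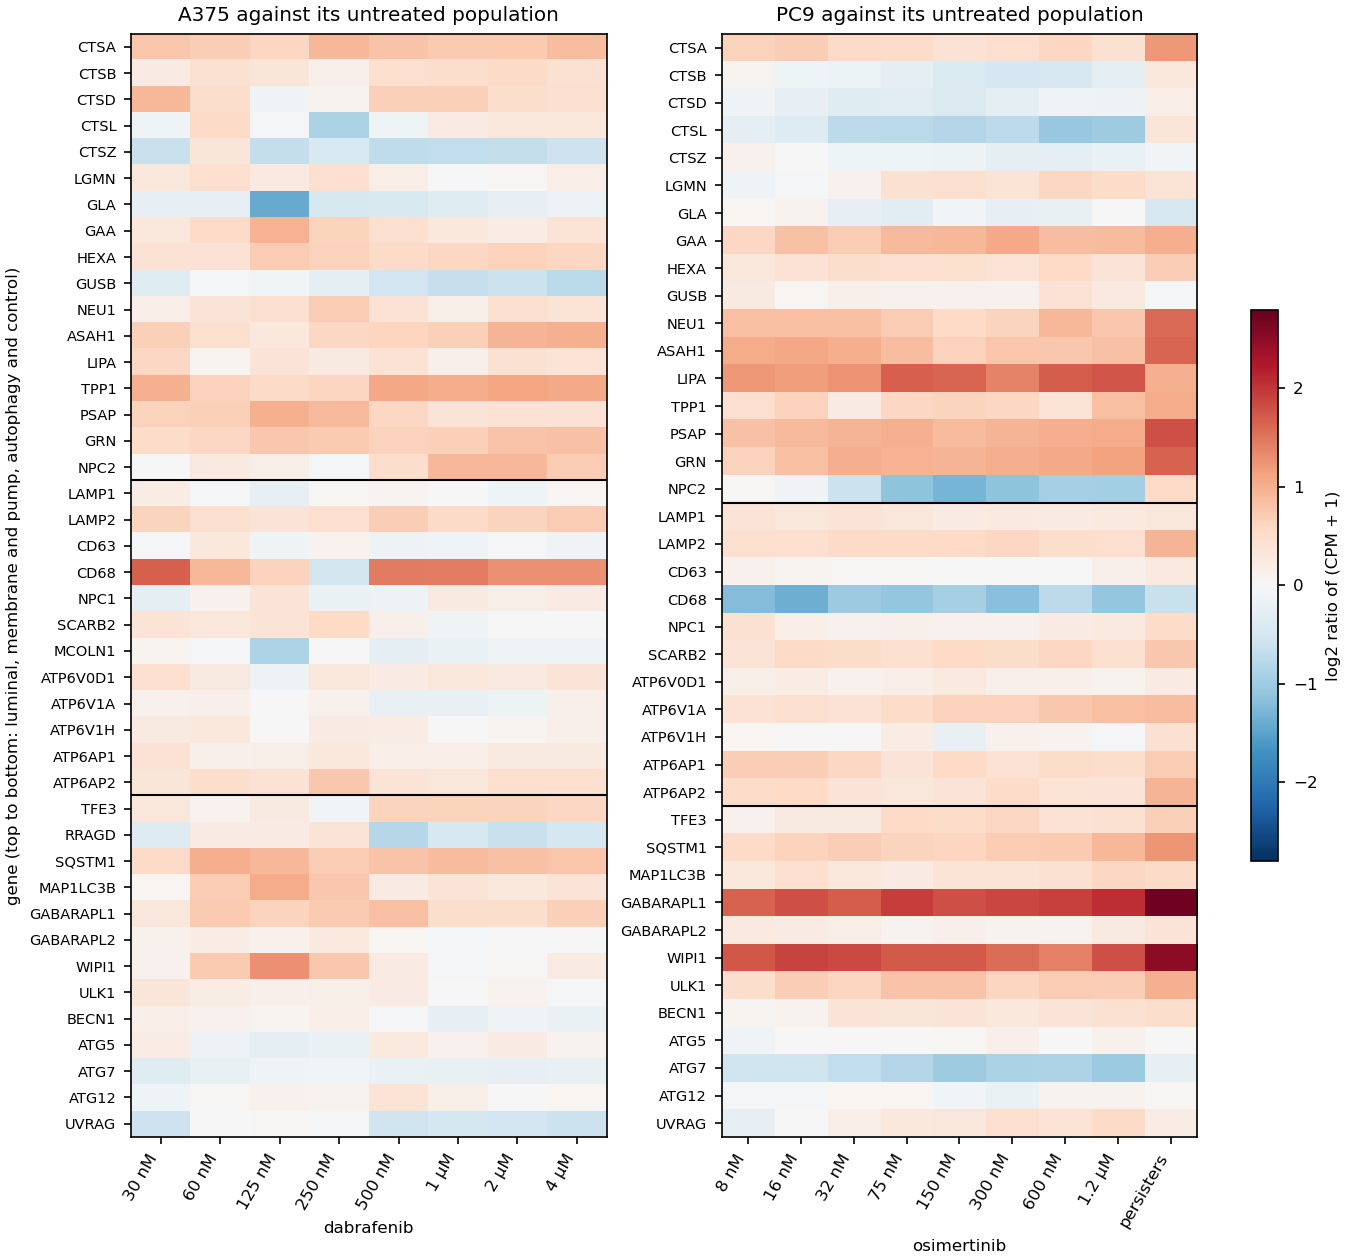
Log2 ratio of (CPM + 1) against the untreated population of the same line for every counted gene, in the 8 adapted A375 populations and the 8 adapted PC9 populations and persisters. Red is higher and blue lower, and black lines part luminal, membrane and pump, and autophagy and control genes. PSAP, GRN, GABARAPL1 and WIPI1 are red across all PC9 columns and deepest in persisters.

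Part of the luminal genes was higher in PC9 from 8 nM on, 6 of 17 at that dose, where 10.4% of all counted genes were. Of autophagy and control genes only 2 of 12 were, GABARAPL1 and WIPI1, which is close to the share of all genes. At 8 nM 9 of 40 genes were at least 1.5-fold higher than in untreated cells, beside 10.4% of all 9990 counted genes, and 1 was lower, beside 5.42%. At 1.2 µM 13 were higher and 4 lower, beside 15.1% and 11.0%. NEU1 and WIPI1, among those higher at both doses, were counted only because of treated populations. The median log2 ratio of the counted genes was 0.31 at 8 nM and 0.42 at 1.2 µM, and 0.02 and 0.03 over all genes. GABARAPL1 was at 20.3 CPM untreated and at a lowest of 66.0, a median of 75.3 and a highest of 88.1 CPM over the 8 adapted populations. The ratio was 3.25-fold (2.75 to 3.85) at 8 nM and 4.35-fold (3.72 to 5.09) at 1.2 µM, and no adapted population came near the untreated one. WIPI1 was at 4.17 CPM untreated and 12.8 to 18.3 CPM adapted, 4.12-fold higher (2.90 to 5.94) at 1.2 µM.

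LIPA, the acid lipase that frees cholesterol and fatty acids, was at 12.4 CPM in untreated PC9, 30.0 CPM at 8 nM (2.42-fold, 1.93 to 3.04) and 44.2 CPM at 1.2 µM (3.56-fold, 2.90 to 4.39). The populations at 8 to 32 nM lay at 28.9 to 31.2 CPM and those from 75 nM up at 34.4 to 44.2 CPM. GRN was at 77.3 CPM untreated, 121 CPM at 8 nM and 169 CPM at 1.2 µM, 2.18-fold (2.00 to 2.39). PSAP was at 133 CPM untreated and 234 to 275 CPM adapted, 2.07-fold higher at 1.2 µM (1.93 to 2.21). These 3 were above 1.5-fold in all 8 adapted populations, as were ASAH1 (46.9 CPM untreated, 73.8 to 101 CPM adapted), GABARAPL1 and WIPI1. GAA stood at 14.2 CPM untreated and 27.2 CPM at 1.2 µM (1.91-fold, 1.54 to 2.38), and SQSTM1 at 361 and 681 CPM (1.89-fold, 1.81 to 1.97). ATP6V1A, the catalytic subunit of the proton pump, was at 48.5 CPM untreated, 64.4 CPM at 8 nM and 87.9 CPM at 1.2 µM, 1.81-fold (1.61 to 2.04). At 8 nM CTSA (72.6 against 46.2 CPM) and ATP6AP1, an accessory subunit of the pump (86.3 against 53.3 CPM, 1.62-fold, 1.44 to 1.82), were also past 1.5-fold.

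NPC2, CTSL, ATG7 and CD68 ran the other way in adapted PC9. NPC2 was at 427 CPM untreated, 439 CPM at 8 nM and 402 CPM at 16 nM, then 279 CPM at 32 nM and 173 to 224 CPM from 75 nM up, 1.96-fold lower at 1.2 µM (1.85 to 2.07). CTSL was at 46.9 CPM untreated, 38.6 CPM at 8 nM, 22.0 CPM at 600 nM and 23.1 CPM at 1.2 µM, 2.03-fold lower (1.70 to 2.43). ATG7, the enzyme that starts LC3 conjugation, was at 121 CPM untreated and 57.8 to 82.4 CPM adapted, 2.09-fold lower at 1.2 µM (1.87 to 2.33). CD68 was at 30.2 CPM untreated and 11.1 to 17.9 CPM adapted, 2.44-fold lower at 8 nM (1.90 to 3.16) and 2.19-fold lower at 1.2 µM (1.75 to 2.77). All 8 adapted PC9 populations lay below their untreated cells for CD68, while 7 of 8 adapted A375 populations lay above theirs.

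**Figure D3:**
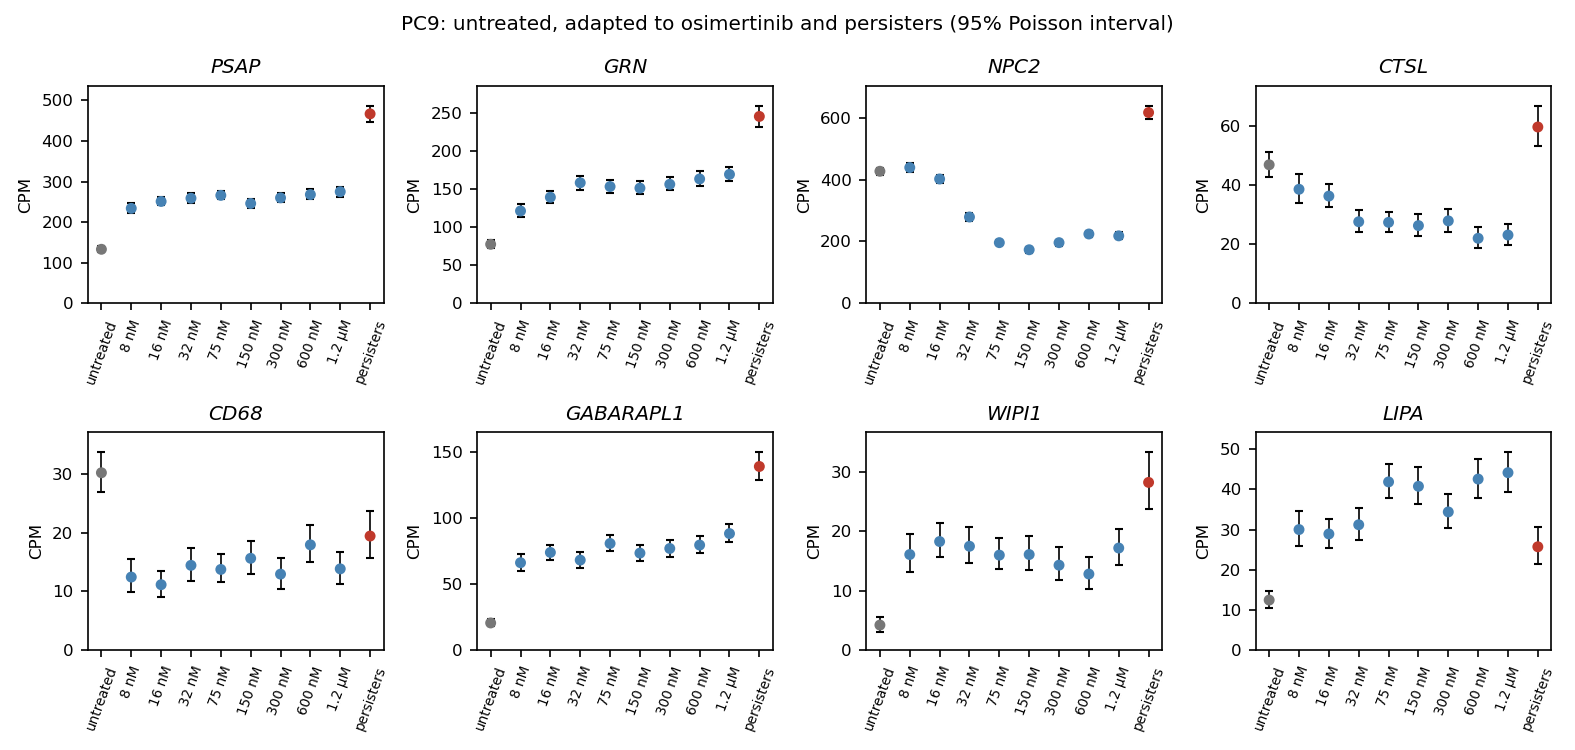
CPM of 8 genes in the 10 PC9 populations, untreated in grey, adapted in blue and persisters in red, with 95% Poisson counting intervals as bars. PSAP, GRN, GABARAPL1 and WIPI1 are highest in persisters, NPC2 and CTSL are low at high adapted doses and highest in persisters, and LIPA is highest at 1.2 µM adapted.

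Persisters had the highest levels of most of these genes. Of the 40 counted genes 26 (65.0%) had their highest PC9 level in persisters, where 24.6% of all counted genes did. These were 11 of 17 luminal, 8 of 11 membrane and pump and 7 of 12 autophagy and control genes. Against untreated cells 19 of 40 were at least 1.5-fold higher, beside 20.3% of all genes, and 1 was lower, beside 20.6%. NEU1, WIPI1 and TFE3 are among the 26 and among the 19. They were below 10 CPM in untreated cells and were counted only because of treated populations, so they are not separate support. Against cells adapted to the same 1.2 µM 10 were higher, beside 10.6%, and 1 was lower, beside 13.6%. The luminal median log2 ratio against untreated cells was 0.69, that of membrane and pump genes 0.51 and that of autophagy and control genes 0.52, where the median of all genes was -0.03. Both persister comparisons share the persister cells.

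GABARAPL1 stood at 139 CPM in persisters, 6.85-fold above untreated cells (5.87 to 8.03) and 1.58-fold above 1.2 µM adapted cells (1.41 to 1.76). WIPI1 stood at 28.3 CPM, 6.79-fold (4.81 to 9.76) and 1.65-fold higher (1.29 to 2.12). PSAP was at 467 CPM, 3.51-fold above untreated (3.28 to 3.75) and 1.70-fold above 1.2 µM adapted cells (1.60 to 1.80). In these 3 the persisters lay above all 8 adapted populations, which lay above the untreated cells. Among the cells in the authors' table, which holds 12.9% of untreated PC9 cells and 81.8% of persisters, the log2 ratios against 1.2 µM adapted cells were 0.43 for GABARAPL1 and 0.31 for WIPI1, under 1.5-fold. GRN was at 245 CPM (3.16-fold, 2.89 to 3.46), ASAH1 at 146 CPM (3.11-fold, 2.77 to 3.50), SQSTM1 at 855 CPM (2.37-fold, 2.27 to 2.48) and CTSA at 108 CPM (2.34-fold, 2.06 to 2.65). NEU1, named after its values were seen, was at 21.0 CPM against 6.35 CPM untreated (3.31-fold, 2.41 to 4.57). GAA was at 29.7 CPM and ULK1, the kinase that starts autophagy, at 26.1 CPM (2.08-fold, 1.62 to 2.68).

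Among membrane and pump genes LAMP2 (137 against 69.7 CPM untreated), ATP6AP2 (59.9 against 30.5), ATP6V1A (89.0 against 48.5), SCARB2, which ferries an enzyme to the lysosome (46.5 against 27.1), and ATP6AP1 (88.2 against 53.3) were past 1.5-fold in persisters. The lowest of these ratios was 1.66-fold (1.46 to 1.88) and the highest 1.96-fold (1.76 to 2.18). SCARB2 did not keep this in the listed cells, where its log2 ratio was 0.23 in place of 0.76. ATP6V1A did not set persisters apart from 1.2 µM adapted cells, at 89.0 and 87.9 CPM. CD68 was the only gene past 1.5-fold in the lower direction, at 19.4 CPM (1.56-fold lower, 1.24 to 1.99).

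Against adapted cells at the same 1.2 µM the widest differences were in 2 genes that were low there. NPC2 was at 617 CPM in persisters and 218 CPM in adapted cells, a log2 ratio of 1.49, and 1.44-fold above untreated (1.38 to 1.51). CTSL was at 59.7 and 23.1 CPM, 2.58-fold higher (2.13 to 3.14). ATG7 was at 102 CPM, 1.76-fold higher (1.55 to 2.01), below its untreated 121 CPM. CTSA was 1.73-fold (1.52 to 1.96), ASAH1 1.74-fold (1.56 to 1.94) and ATP6AP2 1.52-fold higher (1.29 to 1.79). LIPA was lower in persisters, at 25.7 against 44.2 CPM, 1.72-fold (1.40 to 2.13), though above untreated cells. Persisters also differed in markers of other cells: 6 of 10 macrophage markers have a row in the PC9 table, none reached 10 CPM, and their sum was 4.17 CPM untreated and 14.3 CPM in persisters, mostly CSF1R at 7.95 CPM. FCER1G was at 0 in persisters. All 4 endothelial markers have a row and none reached 10 CPM, and their sum was 5.21 CPM untreated, 1.62 CPM at 1.2 µM and 8.35 CPM in persisters, where CDH5 was at 5.50 CPM against 0.758 CPM untreated and PECAM1 at 0.611 against 3.98 CPM. Of 7 fibroblast markers 2 have a row, COL1A1 at 4.64 CPM untreated, 10.9 CPM at 1.2 µM and 9.17 CPM in persisters and FAP at 0.815 CPM or less. The part of all these markers in the results was not tested.

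Some genes were above untreated cells at every dose. In A375 9 of 42 genes were above untreated cells in all 8 adapted populations by intervals that exclude 1, where 5.08% of all genes were: CTSA, HEXA, TPP1, PSAP, GRN, LAMP2, ATP6AP2, SQSTM1 and GABARAPL1. None was lower in all 8, where 15.0% of all genes were. In PC9 19 of 40 were higher in all 8, where 16.8% of all genes were, and CTSL, CD68 and ATG7 were lower in all 8, where 14.5% were. The 19 were CTSA, GAA, HEXA, NEU1, ASAH1, LIPA, PSAP, GRN, LAMP1, LAMP2, SCARB2, ATP6V1A, ATP6AP1, ATP6AP2, SQSTM1, MAP1LC3B, GABARAPL1, WIPI1 and ULK1. Of these, NEU1 and WIPI1 were counted only because of treated populations, so they are not separate support. CTSA, HEXA, PSAP, GRN, LAMP2, ATP6AP2, SQSTM1 and GABARAPL1 are in both sets, that is all of the A375 set but TPP1. All 8 comparisons of a line share 1 untreated population. HEXA, a subunit of the hexosaminidase, was at 23.1 CPM untreated and 30.9 to 38.8 CPM adapted in A375, and at 23.5 and 29.6 to 35.2 CPM in PC9.

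**Figure D4:**
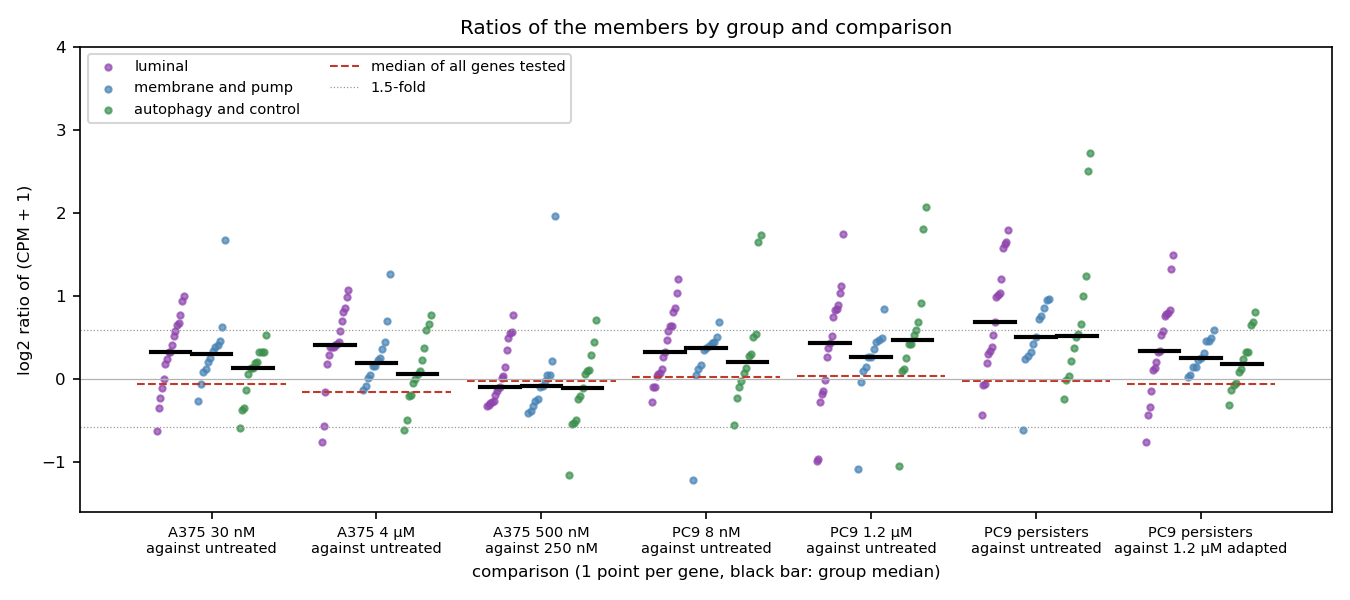
Log2 ratios of (CPM + 1) of the counted genes in the 7 comparisons, 1 point per gene, coloured by group, with group medians as black bars, the median of all counted genes as a red dashed line and 1.5-fold as dotted lines. All 3 group medians lie above the all-gene median in 6 comparisons and below it in A375 at 500 against 250 nM.

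Of the transcription factors that act on this pathway, TFEB was at 2.64 to 6.42 CPM in A375 and 1.76 to 4.83 CPM in PC9, below the counting limit. TFE3 was at 20.3 CPM in untreated A375 and 31.2 to 32.0 CPM in the 4 populations from 500 nM up, 1.53-fold higher at 4 µM (1.30 to 1.80). The log2 ratio at 4 µM was 0.59, but 0.51 with a pseudocount of 5 CPM and 0.35 in a random 50% of the cells, both under 1.5-fold. In PC9 TFE3 was at 6.73 CPM in untreated cells and 11.2 CPM in persisters, 1.67-fold (1.15 to 2.40), a ratio that was 0.09 on the log2 scale among listed cells in place of 0.66. MITF, fixed for comparison and not on the list, was at 73.4 CPM untreated and 207 CPM at 30 nM in A375 (2.83-fold, 2.63 to 3.03) and at 91.1 CPM at 4 µM. In PC9 it was at 33.5 CPM untreated, 42.2 to 64.8 CPM adapted and 83.5 CPM in persisters, 2.49-fold (2.15 to 2.88). FLCN was at 3.79 CPM untreated and 5.42 to 7.97 CPM in the treated PC9 populations.

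The GABARAP family did not move as one. GABARAP itself was listed at only 1.75 to 4.19 CPM over both lines, and GENCODE 29 has a protein-coding gene, AC120057.2, overlapping it on the same strand. How reads shared by both were counted is not given in the sources used here, so its level is uncertain, as are those of MCOLN1, FLCN, CTSD and HEXA, which also overlap a protein-coding gene. GABARAPL2 was at 236 CPM in untreated A375 and 230.0 to 284 CPM adapted, and at 95.6 CPM in untreated PC9, 101 to 116 CPM adapted and 124 CPM in persisters, never 1.5-fold apart from untreated cells. Of the 3 GABARAP genes, GABARAPL1 passed 1.5-fold. MAP1LC3B was at 42.6 CPM in untreated PC9, 64.9 CPM at 1.2 µM (1.52-fold, 1.33 to 1.73) and 62.5 CPM in persisters.

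Other genes of the list stayed nearer their untreated level, with the exceptions named here. CTSB, a cysteine protease, was at 55.4 CPM untreated and 61.0 to 80.4 CPM adapted in A375, and at 63.6 CPM untreated, 45.9 to 66.6 CPM adapted and 78.6 CPM in persisters of PC9. LGMN, which cleaves after asparagine, was at 9.97 and 9.90 to 14.1 CPM in A375 and at 23.9 and 22.1 to 36.3 CPM in PC9. In 5 of 8 adapted PC9 populations its counting interval lay above untreated cells, and 0 were called higher. CD63, a tetraspanin, ranged from 997 to 1339.5 CPM in A375 and from 607 to 749 CPM in PC9. NPC1, the cholesterol transporter of the membrane, ranged from 23.0 to 35.7 CPM in A375 and from 26.8 to 38.7 CPM in PC9. ATP6V0D1 and ATP6V1H, subunits of the pump, and BECN1, ATG5 and ATG12, of the core machinery, were past 1.5-fold in no treated population of either line. MCOLN1, a calcium channel, was at 5.10 to 10.7 CPM in A375. It was called lower there at 125 nM, at 5.10 against 10.1 CPM untreated. SCARB2 was at 73.4 CPM untreated and 67.3 to 108 CPM adapted in A375. ULK1 (11.3 CPM untreated, 10.9 to 14.4 CPM adapted) and ATG7 (89.3 and 69.6 to 85.1 CPM) stayed within 1.5-fold in every A375 population. LIPA was at 24.5 CPM untreated and 26.0 to 37.2 CPM adapted, with a CPM ratio of 1.52-fold (1.30 to 1.76) at 30 nM that was not called on the log2(CPM + 1) scale. ATP6AP2, an accessory subunit of the pump, was at 128 CPM untreated and 159.7 to 216 CPM adapted, and was called higher at 250 nM (1.69-fold, 1.59 to 1.79). GAA was past it in 2 A375 populations, with 36.8 CPM at 125 nM against 18.2 CPM untreated.

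In PC9 CTSD was at 182 CPM untreated, 137 to 169.9 CPM adapted and 207 CPM in persisters. Its level was lower at every adapted dose, by intervals that exclude 1 in 6 of 8 populations, and 0 were called lower. CTSZ (134 CPM untreated, 112 to 146 CPM adapted, 128 CPM in persisters), GLA (63.8, 52.0 to 67.8 and 46.9 CPM) and GUSB (37.7, 39.0 to 50.3 and 36.1 CPM) were not highest in persisters. UVRAG was at 83.1 CPM untreated, 70.8 to 120.4 CPM adapted, highest at 1.2 µM, and 96.0 CPM in persisters. LAMP1 was at 72.5 CPM untreated, 85.5 to 93.2 CPM adapted and 90.7 CPM in persisters. TPP1 was at 10.2 CPM untreated, 12.3 to 19.1 CPM adapted and 22.0 CPM in persisters. A random draw of 50% of the cells moved its persister log2 ratio to 0.43 from 1.03, and a processed transcript, AC091564.7, overlaps it on the same strand.

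Lists of further genes of the pathway hold 137 genes with a row for A375 and 135 with a row for PC9. They gave 41 of 111 counted genes at least 1.5-fold higher and 8 lower in PC9 persisters against untreated cells, with a median log2 ratio of 0.39. That is 36.9% higher, where 20.3% of all counted genes were higher and 20.6% lower. These lists were chosen with earlier results of these data known, so their shares are not separate support. Of further luminal genes 16 of 26 were higher, led by the cathepsins CTSO (27.5 against 4.55 CPM, 6.05-fold, 4.32 to 8.59), CTSH (189.9 against 40.3 CPM, 4.71-fold) and CTSF (27.5 against 5.69 CPM, 4.84-fold). CTSC (42.4 against 114 CPM, 2.68-fold lower) and CTSV (42.4 against 69.0 CPM) were lower. Membrane genes were led by the sialic acid transporter SLC17A5 (3.44-fold), GNPTAB (2.65-fold) and SORT1 (2.55-fold), both of which serve the delivery of enzymes to the lysosome. Of 11 further pump genes 1 was higher, ATP6V1E1 (1.88-fold), and 1 lower, ATP6V0A2 (11.8 against 18.4 CPM), which is named outside the rule after its value was seen. Further autophagy genes were 10 higher and 2 lower of 34, led by the cargo receptor OPTN (85.4 against 27.8 CPM, 3.07-fold), PLEKHM1 (2.41-fold) and RB1CC1 (2.36-fold), with ATG16L1 (2.34-fold) and ATG3 (1.57-fold) lower. Of the regulators 7 of 23 were higher and 1 lower.

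GPNMB, a lysosomal glycoprotein and known MITF target, had the widest ratio of these lists: 6.16 CPM in untreated PC9, 9.91 CPM at 8 nM, 58.8 CPM at 1.2 µM (9.54-fold, 7.34 to 12.6) and 65.2 CPM in persisters (10.6-fold, 8.08 to 14.0). Its level was higher at each of the 8 doses than at the one below, though the steps from 75 to 150 nM (41.2 and 41.8 CPM) and from 600 nM to 1.2 µM (58.3 and 58.8 CPM) are within counting error. In A375 it was at 49.8 CPM untreated, 115 CPM at 30 nM and 92.3 CPM at 4 µM. Over all further genes in A375 19 of 120 were higher and 0 lower at 30 nM, where 9.64% and 12.6% of all counted genes were. At 4 µM 23 were higher and 6 lower, where 10.9% and 20.8% of all counted genes were. Among them OPTN (30.2 CPM untreated, 65.0 CPM at 30 nM and 72.9 CPM at 4 µM), the cysteine protease CTSK (19.8, 44.8 and 39.9 CPM) and SESN3, a stress-responsive sestrin (12.2, 51.2 and 25.5 CPM), were past 1.5-fold at both doses. The pump subunit ATP6V0B was lower, at 180.3 CPM at 4 µM against 313 CPM untreated (1.74-fold, 1.64 to 1.84), and ATP6V0E1 higher, at 323 against 193 CPM.

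Summed over the 29 luminal, membrane and pump genes, transcripts were at 2399 CPM in untreated PC9, 2455 to 2846 CPM in the adapted populations and 3717 CPM in persisters (95% Poisson interval 3663 to 3772). Much of the difference between persisters and untreated cells lay in a few abundant genes. These were PSAP (467 against 133 CPM), NPC2 (617 against 427) and GRN (245 against 77.3), so the sum does not weigh the genes evenly. In A375 the sum was 2810.3 CPM untreated and 2939.8 to 3569 CPM adapted, highest at 60 nM, where CTSZ and CD63 were also at their highest. The 12 autophagy genes summed to 895 CPM in untreated PC9, 1098 to 1339.6 CPM adapted and 1603 CPM in persisters.

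The difference in persisters was present in the median cell. The median PC9 cell had 0.236% of its UMIs in the 29 genes when untreated (quartiles 0.195 and 0.286), 0.260% at 1.2 µM (0.210 and 0.321) and 0.360% in persisters (0.269 and 0.472). Persisters also had the fewest UMIs per cell, a median of 5776 against 7968 in untreated cells. Every cell was then thinned to 2888 UMIs, leaving out 57 untreated cells, 58 at 1.2 µM and 72 persisters. The medians were 0.242% untreated, 0.277% at 1.2 µM and 0.381% in persisters. The lower quartile of persisters, 0.277%, lay above the untreated median and was equal to the 1.2 µM median. At this depth 0.242% and 0.277% are neighbouring UMI counts, the smallest step possible.

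**Figure D5:**
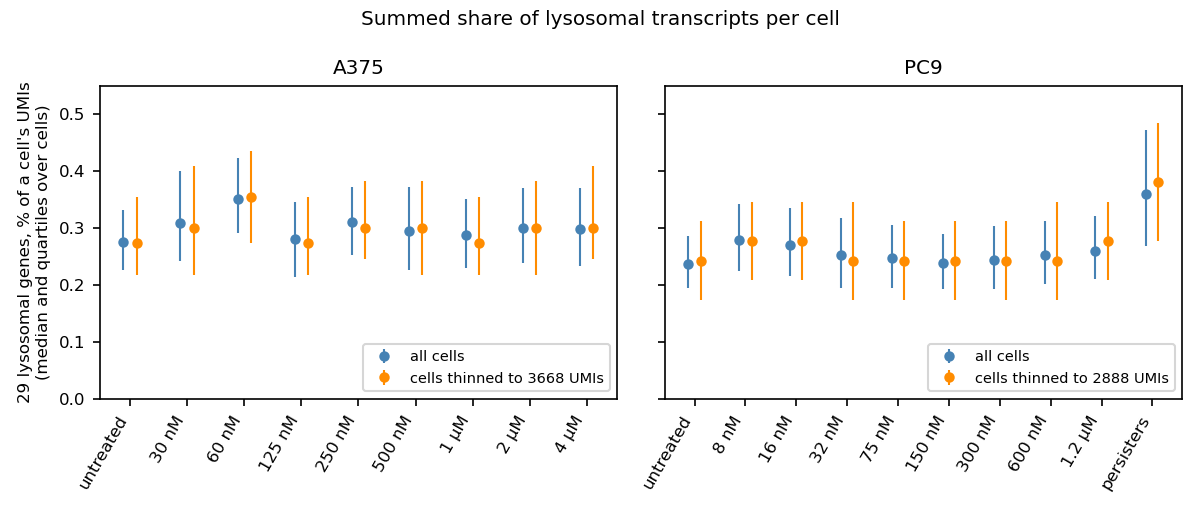
Share of a cell's UMIs in the 29 luminal, membrane and pump genes, with the median over cells as points and the quartiles as bars, in all cells (blue) and in cells thinned to a fixed number of UMIs (orange). The persister median of 0.360% is above the untreated upper quartile of 0.286%, and the A375 medians run from 0.275% to 0.352%.

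The authors' cell tables place 4208 of the PC9 cells and 5059 of the A375 cells in clusters, and the clusters are read here as a description, since they were made from these cells' expression. In PC9 PSAP was at 145 CPM in cluster 0 (95.4% untreated cells) and at 545 CPM in cluster 1 (83.4% persisters). Clusters 2, 3 and 4, each with an adapted population as its largest part, had PSAP at 323, 203 and 422 CPM and GABARAPL1 at 98.0, 71.2 and 122 CPM. Some other genes with their highest population level in persisters were not highest in cluster 1. HEXA was at 38.0 CPM in cluster 1 and 41.3 CPM in cluster 4, and ATP6V1A at 95.3 and 104 CPM. BECN1 was at 41.3 CPM in cluster 1 and 47.0 CPM in cluster 0. In A375 CD68 was at 6.27 to 7.28 CPM in clusters 0, 1 and 2 and at 15.4 to 36.7 CPM in clusters 3 to 7.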

How the data were processed

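Single-cell 3′ libraries of tagged, pooled populations were sequenced, and UMI counts per gene and cell were deposited by the authors for each line. Cell Ranger 7.0.0 and GRCh38 are named in the submitters' processing notes. The A375 pool was run 2 times, and cells of the runs could not be told apart. The deposited cell tables give the percent of mitochondrial UMIs and a cluster for part of the cells, per the file headers. Their names carry the label g1, which can stand for the G1 phase, but how the cells were chosen is not described further. They hold 22.0% of untreated A375 cells and 64.5% at 4 µM, and 12.9% of untreated PC9 cells and 81.8% of persisters. The part of the cell cycle in the results was not tested. A cell's population was read from its name, and the suffix for 500 nM was matched to the label of that dose. No doublet caller was run.

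The UMIs of a population's cells were added up and scaled to its total (CPM). A gene was counted at 10 CPM or more in at least 1 population of its line and called at 1.5-fold on the log2(CPM + 1) scale, which understates ratios of low genes. Folds are ratios of CPM. Their 95% intervals are exact binomial (Clopper-Pearson) and those of levels exact Poisson, for counting error only. With 1 culture per population there is no test. Named were up to 8 members per direction with the largest ratios and at least 25 CPM, up to 3 genes per further list, and TFEB, TFE3, MITF, GABARAP, GABARAPL1, GABARAPL2, MAP1LC3B and CD68. Exceptions are marked, and ranges describe the rest. Members and lists were chosen with earlier results of these data known. Calls and intervals were tested on simulated data. Alternatives changed the scaling, the gene minimum, the pseudocount, the threshold and the cells used. Python 3.11.15, numpy 2.4.6, scipy 1.17.1, pandas 2.3.3 and, for TMM factors, edgeR 4.0.16 in R 4.3.3 were used. Overlapping genes were read from GENCODE 29.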

Additional observations from a re-analysis of the deposited data

How the results depend on the processing

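The 83 ratios past 1.5-fold gave 797 values under 10 alternatives, all of the same sign, and 757 of these stayed past 1.5-fold. Changes of the gene minimum leave a gene's ratio as it is, so the values under them are the same by construction. They are part of both counts and say nothing of how stable the ratios are. Of 154 counts of genes under alternatives, 116 were within 1.5 times the reported count, and 5 of 210 group medians had the other sign. A 2-fold threshold left 1 higher and 0 lower genes in A375 at 30 nM, 2 and 0 at 4 µM and 1 higher at 500 against 250 nM, and in PC9 4 higher at 8 nM, 5 higher and 2 lower at 1.2 µM, 11 higher and 0 lower in persisters against untreated cells and 2 and 0 against 1.2 µM. A minimum of 50 CPM, which tests fewer genes, left 1 lower at 4 µM, 1 higher and 0 lower at 500 against 250 nM, 0 lower at 8 nM, 7 higher at 1.2 µM, 10 higher and 0 lower in persisters against untreated cells and 0 lower against 1.2 µM, where no minimum gave 2 lower. TMM scaling gave 1 lower at 4 µM and 2 lower at 8 nM. Totals without mitochondrial and ribosomal protein genes gave 1 lower at 30 nM and 1 at 4 µM. A pseudocount of 5 CPM gave 1 lower at 30 nM and 0 in persisters against untreated cells. Leaving out cells above 2 times the median UMIs gave 4 lower at 4 µM, 5 higher at 500 against 250 nM and 0 lower in persisters against untreated cells, where listed cells only also gave 0. Leaving out cells with 20% or more mitochondrial UMIs gave 1 lower at 30 nM. The mean of per-cell CPM gave 11 higher at 30 nM and 5 higher at 500 against 250 nM. A random 50% of the cells gave 1 lower at 30 nM, 1 higher and 2 lower at 500 against 250 nM and 2 lower at 8 nM. Where no construction is named, the cause was not tested. Depth limits the genes near 10 CPM, such as NEU1, TFE3 and WIPI1 in PC9, and the 125 nM population of A375. No paired analysis was possible because each population is 1 culture and no result comes from a test.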
